A study of Caenorhabditis elegans with 6 samples.

Results

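The 41 genes described here belong by name to enzyme families that activate fatty acids and carry out early steps of their breakdown in the nematode Caenorhabditis elegans. The names do not give each enzyme's substrate, and acs-19, for one, uses acetate. By family, the genes divide as follows. They comprise 20 acyl-CoA synthetase genes (acs), 12 acyl-CoA dehydrogenase genes (acdh) and 9 genes of the enoyl-CoA hydratase family (ech). The rule reads names: a WormBase symbol that begins with acs-, acdh- or ech- and a number, without 4 named genes. Of 45 genes with such symbols, the rule leaves out acs-1, acs-22, acdh-1 and ech-6, and the remaining 41 are among 46778 gene IDs in the count tables. All 41 are annotated as protein coding in WBcel235, all 41 had enough reads to be tested, and 32 had at least 10 reads in every library.

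RNA was sequenced from whole worms at the L4 larval stage, raised from L1 larvae on plates with the test bacteria. The strain was wild type (N2) or carried allele unk59 or unk49 of scav-4, whose product belongs to the CD36 family of lipid receptors; what the alleles change is not stated in the labels. Food was E. coli OP50, the usual laboratory diet, or Microbacterium sp. JUb74, a diet high in branched chain fatty acids by the series title. Wild type and unk59 were each sequenced on OP50 and on JUb74, and unk49 on OP50, which gave 5 groups of 2 libraries; the combination of unk49 with JUb74 was not analysed here. The labels do not say whether a group's libraries came from separate cultures, so p-values measure the spread between libraries, with n = 2 in each group.

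A free fatty acid is used only after an acyl-CoA synthetase has joined it to coenzyme A. In beta-oxidation an acyl-CoA dehydrogenase in mitochondria, or an acyl-CoA oxidase in peroxisomes, introduces a double bond into the acyl-CoA, and a hydratase adds water. A hydroxyacyl-CoA dehydrogenase then oxidises the product and a thiolase releases acetyl-CoA. In C. elegans the intestine and the epidermis store most of the fat, peroxisomal beta-oxidation also trims the side chains of ascaroside pheromones, and the nuclear receptor NHR-49 with the Mediator subunit MDT-15 controls many of the genes involved.

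Each library held 21937088 to 22692632 read pairs assigned to genes, and 15950 genes were tested. Levels are in CPM, read pairs scaled to library size, with library sizes adjusted by the TMM method. Differences are log2 fold changes from edgeR's quasi-likelihood F test with standard error (SE) and Benjamini-Hochberg adjusted p over all genes tested, and a gene passed when its adjusted p was under 0.05. The mutated gene scav-4 was at 47.3 and 36.1 CPM in wild type and 6.04 and 7.16 CPM in unk49 on OP50, and was lower there (log2 fold change -2.66, SE 0.47, adjusted p = 0.00213). In unk59 it was at 39.3 and 38.3 CPM on OP50 and did not pass against wild type (log2 fold change -0.10, SE 0.43, adjusted p = 0.956). On JUb74 the gene was at 33.1 and 9.93 CPM in wild type and 38.1 and 31.2 CPM in unk59. The unk59 libraries on OP50 stood apart: by Pearson correlation of log2 CPM across the genes tested, library 1 was nearer to wild type on JUb74 (0.983 and 0.971) and library 2 to wild type on OP50 (0.978 and 0.973) than they were to each other (0.970). All groups are labelled L4, but summed levels of sperm, oocyte, epidermis and moulting genes differed between groups, and their values stand beside the results they move with. In RNA from whole worms, fewer cells of a type and less RNA per cell cannot be told apart. Whether the groups were at the same point of development was not tested. Such a difference could not be told apart from diet or genotype.

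Mean levels per kilobase of exon, over the 10 libraries, ran from 217 CPM for ech-7 to 0.248 CPM for acs-9. A mean of at least 10 CPM per kilobase was reached by 27 genes, and 3 were under 1. The highest in this mean was ech-7, a predicted enoyl-CoA hydratase, with 96.2 to 512 CPM per kilobase over the libraries, and unk59 on JUb74 carried its rank. Next came acdh-10 (163 CPM per kilobase), a relative of the medium-chain acyl-CoA dehydrogenase, and acs-19 (135), an acetyl-CoA synthetase. In mean CPM per kilobase, acdh-10 was above ech-7 in wild type on OP50 (179 and 129), wild type on JUb74 (231 and 215) and unk59 on OP50 (216 and 119), and below it in the other groups. Then followed ech-1.2 (119 CPM per kilobase), a relative of the alpha subunit of the mitochondrial trifunctional protein, and acdh-9 (110.1), acdh-7 (110.0), ech-4 (103), acs-13 (99.1), acs-5 (98.7), acs-4 (95.4), acdh-3 (82.2), acs-14 (64.5), acdh-12 (62.4) and acs-7 (60.7). A middle range of mean CPM per kilobase held acdh-11 (46.7), ech-8 (36.4), acs-20 (35.5), acs-11 (29.9), ech-5 (28.1), acdh-2 (27.2), ech-2 (19.1), acdh-13 (17.6), ech-1.1 (17.4), ech-3 (15.7), acs-17 (15.2), acs-12 (11.3) and acdh-6 (10.9). Under 10 CPM per kilobase were acdh-8 (6.81), acs-2 (6.03), acs-3 (5.12), acs-16 (4.82), acs-21 (4.04), acs-10 (3.14), acdh-4 (2.96), acs-18 (2.21), acs-6 (1.97), acdh-5 (1.74), ech-9 (1.69), acs-15 (0.671), acs-24 (0.265) and acs-9 (0.248). The library ranges of all neighbours in this order overlapped, so the order is a description.

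**Figure D1:**
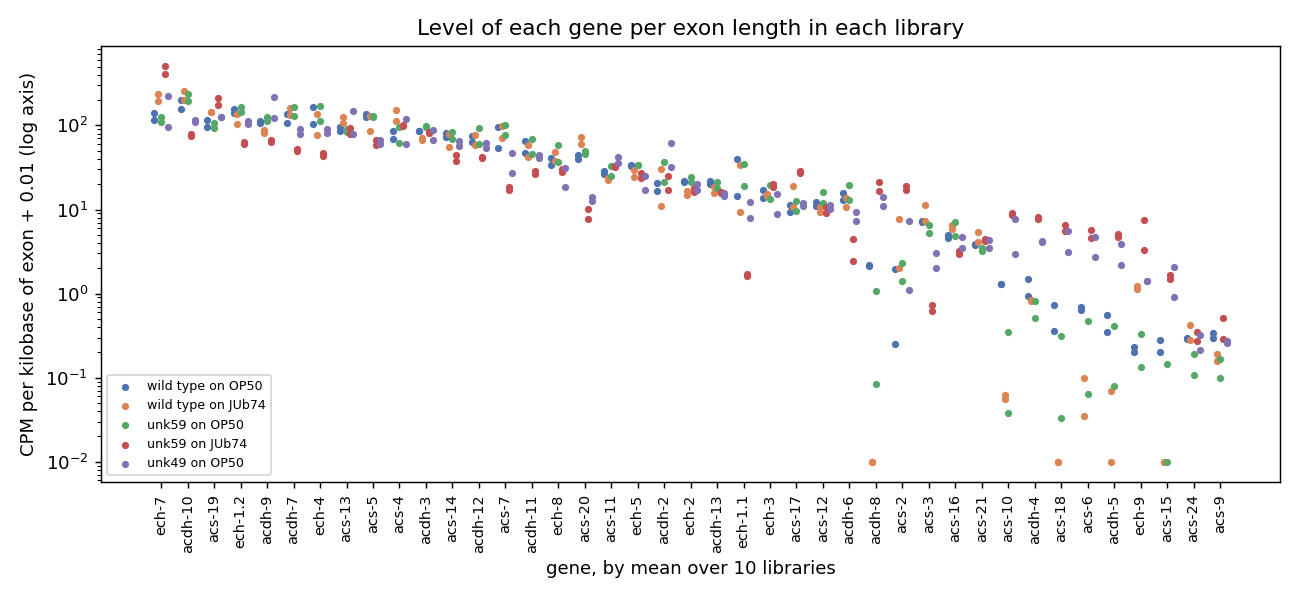
Each point is the level of a gene in a library, as CPM per kilobase of exon plus 0.01 on a log axis, with genes ordered by their mean over the 10 libraries and coloured by group. Points of acdh-8, towards the right, reach from no reads to 21.2 CPM per kilobase, while those of acs-13 lie between 79.6 and 149.

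The 20 acs genes summed to 689 and 650.3 CPM per kilobase in wild type on OP50 and 815 and 770.1 on JUb74. In unk59 the acs sum was 679 and 679 on OP50 and 649 and 611 on JUb74, and in unk49 649 and 542 on OP50. The lowest acs sum was in library 2 of unk49 and the highest in library 1 of wild type on JUb74. The 12 acdh genes summed to 733 and 626 CPM per kilobase in wild type on OP50 and 773 and 625 on JUb74. In unk59 the acdh sum was 705 and 848 on OP50 and 424 and 408 on JUb74, and in unk49 575 and 699.8 on OP50. Both unk59 libraries on JUb74 lay below all others in the acdh sum. The 9 ech genes summed to 591 and 502 CPM per kilobase in wild type on OP50 and 611 and 518 on JUb74. In unk59 the ech sum was 511 and 612 on OP50 and 721 and 612 on JUb74, and in unk49 360.0 and 525 on OP50. A large part of the ech sum was ech-7, at 512 CPM per kilobase in library 1 of unk59 on JUb74. Family sums are a description and were not tested.

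In wild type, JUb74 in place of OP50 moved few of these genes: ech-9 rose, and acs-6, acs-10, acs-18 and acdh-8 fell. These 5 of 41 genes are a share of 12.2%, beside 8.94% of all genes tested (2.65% higher and 6.29% lower). Over the 41 genes the log2 fold changes had a median of -0.21, and over all genes -0.0034. The gene ech-9 (WBGene00001158, chromosome IV, 10233310 to 10235329, minus strand) is a relative of the peroxisomal bifunctional enzyme of beta-oxidation. Levels of ech-9 were 0.367 and 0.315 CPM in wild type on OP50 and 1.87 and 2 CPM on JUb74. In unk59, ech-9 was at 0.203 and 0.525 CPM on OP50 and 12.4 and 5.5 CPM on JUb74, and in unk49 at 2.31 and 2.3 CPM on OP50. Wild-type libraries on JUb74 lay above those on OP50 without overlap (log2 fold change 2.49, SE 0.55, adjusted p = 0.0292), and the highest levels were in unk59 on JUb74. Its neighbour ech-8, 1296 bases away on the same strand, was at 59.8 and 48.9 CPM on OP50 and 69.3 and 54.1 CPM on JUb74 in wild type, with overlap (log2 fold change 0.18, SE 0.29, adjusted p = 0.753).

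The 4 genes that fell in wild type were all under 3 CPM on OP50. Medium-chain dehydrogenase relative acdh-8 (WBGene00019406, chromosome II, 5794495 to 5796185, plus strand) was at 2.89 and 2.93 CPM on OP50 and had no reads in either library on JUb74. Set against 3 reads a library, acdh-8 was at least 21.4-fold lower on JUb74 (adjusted p = 0.0214). Long-chain synthetase relative acs-18 (WBGene00011173, chromosome IV, 10310748 to 10313665, minus strand) went from 1.6 and 0.765 CPM to no reads, at least 8.73-fold lower by the same floor (adjusted p = 0.0289). Next, acs-10 (WBGene00007082, chromosome V, 14146499 to 14148839, plus strand), was at 2.38 and 2.39 CPM on OP50 and had 2 reads in each library on JUb74. The ratio of OP50 to JUb74 for acs-10 was 26.4 (95% interval 10.03 to 98.9, counting error only), with adjusted p = 0.0237. The remaining gene, acs-6 (WBGene00022849, chromosome II, 7062030 to 7064846, plus strand), was at 1.28 and 1.17 CPM on OP50 and 0.0481 and 0.17 CPM on JUb74, without overlap (log2 fold change -3.39, SE 0.86, adjusted p = 0.043). Low on JUb74 but short of the threshold were acs-15, with no reads and at least 3.67-fold lower (adjusted p = 0.0542), and acdh-5, with 0 and 2 reads (adjusted p = 0.0558). For acdh-5 the ratio of OP50 to JUb74 was 14.1 (95% interval 3.56 to 122, counting error only). Sperm genes were lower on JUb74 too: their summed level over 35 genes was 146 and 124 CPM on OP50 and 1.68 and 2.5 CPM on JUb74, where 22 and 20 of the 35 had no reads. Of 33 sperm genes tested 30 fell in wild type and none rose, beside 6.29% of all genes that fell. Lower too were 5 of 10 oocyte and eggshell genes, 5 of 6 germline genes and 5 of 6 yolk genes. The part of these shifts in the result was not tested.

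None of the 5 wild-type calls held with each library left out in turn. No gene passed when any 1 of the 4 wild-type libraries or library 2 of unk59 on JUb74 was removed, and 3 passed after removal of library 1 of unk59 on JUb74. Over the libraries whose removal lost the call, the highest adjusted p was 0.147 for ech-9, 0.104 for acdh-8, 0.137 for acs-18, 0.127 for acs-10 and 0.155 for acs-6. The calls of acs-6 and ech-9 were also lost without either library of unk49 on OP50, and those of acs-6 and acs-18 without library 1 of unk59 on JUb74. Well-studied genes were among the 36 that did not pass in wild type. Levels of acs-2, a mitochondrial acyl-CoA synthetase induced by fasting through NHR-49, were 0.504 and 4.05 CPM on OP50 and 4.13 and 16.2 CPM on JUb74, a wide spread within each diet (log2 fold change 2.16, SE 1.05, adjusted p = 0.249). Fatty acid transport protein relative acs-20, which the epidermis needs for its cuticle barrier, was at 109 and 97.6 CPM on OP50 and 149 and 179.6 CPM on JUb74, without overlap (log2 fold change 0.67, SE 0.19, adjusted p = 0.0562). Acetyl-CoA synthetase acs-19 was at 226 and 271 CPM on OP50 and 334 and 339.9 CPM on JUb74 (log2 fold change 0.44, SE 0.17, adjusted p = 0.153). Libraries of the diets did not overlap for 27 of the 41 genes, beside 62% of all genes.

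In unk59 the same change of diet moved most of the set, in both directions: 28 of 41 genes passed, 13 higher and 15 lower on JUb74. This share of 68.3% stands beside 59.8% of all genes tested (33.5% higher and 26.3% lower). Log2 fold changes had a median of -0.31 over the 41 genes and 0.084 over all genes. Libraries of the diets did not overlap for 37 of the 41 genes, beside 84.4% of all genes. By family, 8 acs genes rose and 6 fell of 20, 3 acdh genes rose and 6 fell of 12, and 2 ech genes rose and 3 fell of 9. A test of the interaction asked whether the diet effect differed between unk59 and wild type: 18 of the 41 genes passed, with positive values (effect higher in unk59) for 8 and negative values for 10. That is 43.9% of the 41 genes, beside 43.3% of all genes (23.3% positive and 20% negative). Both sets were picked by this interaction, which is built from the wild-type and unk59 libraries on both diets. Their patterns in those groups, shown in the heat map, therefore follow in part from the choice. The counts were 26 for the diet and 19 for the interaction without library 1 of unk59 on OP50, and 25 and 17 without library 2. With each library left out in turn, 22 of the 28 diet calls and 14 of the 18 interaction calls held.

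**Figure D2:**
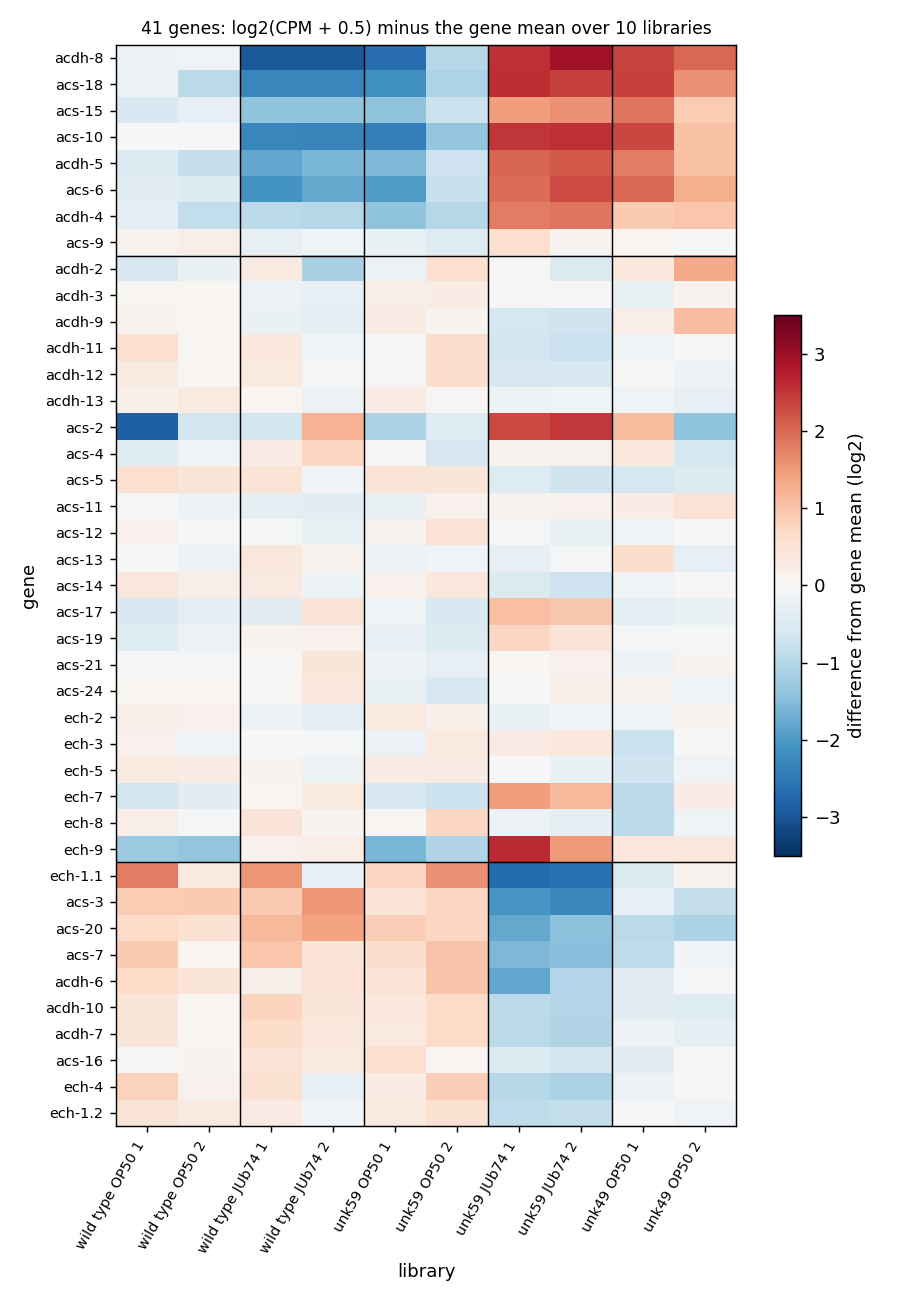
Colour gives log2(CPM + 0.5) of each gene in each library minus the gene's mean over the 10 libraries, with the 8 genes of positive interaction at the top, the 23 whose interaction did not pass in the middle and the 10 of negative interaction at the bottom. In unk59 on JUb74 the top block is red except for acs-9, which is near white, and the bottom block is blue, with acs-16 pale. The libraries of unk49 on OP50 show these colours for most of the same genes.

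The 8 genes with a positive interaction were acdh-4, acdh-5, acdh-8, acs-6, acs-9, acs-10, acs-15 and acs-18. All 8 rose on JUb74 in unk59, 7 of them were higher in unk49 than in wild type on OP50, and 4 of them fell on JUb74 in wild type. Their diet effects in unk59 and wild type follow in part from the choice by the interaction. Outside unk59 on JUb74 and unk49 on OP50, all 8 were under 3 CPM in every library. Levels of acdh-8 were 2.89 and 2.93 CPM in wild type on OP50 and 0 and 0 CPM on JUb74. In unk59, acdh-8 was at 0.101 and 1.43 CPM on OP50 and 22.1 and 28.7 CPM on JUb74, and in unk49 at 19.1 and 14.9 CPM on OP50. The unk59 libraries on JUb74 were the highest of the 10 for acdh-8 and those on OP50 were far lower (log2 fold change 5.02, SE 0.70, adjusted p = 0.000519); the log2 value was 7.88 without library 2 of unk59 on OP50. Levels of acs-10 were 2.38 and 2.39 CPM in wild type on OP50 and 0.0961 and 0.0849 CPM on JUb74. In unk59, acs-10 was at 0.0507 and 0.62 CPM on OP50 and 15.8 and 16.5 CPM on JUb74, and in unk49 at 14.1 and 5.39 CPM on OP50. Diets did not overlap in unk59 for acs-10 either (log2 fold change 5.54, SE 0.71, adjusted p = 0.000244), and the log2 value was 8.16 without library 2 of unk59 on OP50. Levels of acs-18 were 1.6 and 0.765 CPM in wild type on OP50 and 0 and 0 CPM on JUb74. In unk59, acs-18 was at 0.0507 and 0.668 CPM on OP50 and 14.3 and 12.3 CPM on JUb74, and in unk49 at 12.4 and 6.85 CPM on OP50. Its order of groups was that of acs-10, with a diet effect in unk59 of 5.16 (SE 0.74, adjusted p = 0.000594), or 7.88 without library 2 of unk59 on OP50. Levels of acs-6 were 1.28 and 1.17 CPM in wild type on OP50 and 0.0481 and 0.17 CPM on JUb74. In unk59, acs-6 was at 0.101 and 0.859 CPM on OP50 and 8.52 and 10.8 CPM on JUb74, and in unk49 at 8.91 and 5.17 CPM on OP50. Again unk59 on JUb74 lay above unk59 on OP50 (log2 fold change 4.29, SE 0.66, adjusted p = 0.000574; 6.49 without library 2 of unk59 on OP50).

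Long-chain synthetase relative acs-15 (WBGene00019920, chromosome II, 933018 to 936926, plus strand) was the least abundant of the 8 after acs-9. Levels of acs-15 were 0.412 and 0.585 CPM in wild type on OP50 and 0 and 0 CPM on JUb74. In unk59, acs-15 was at 0 and 0.286 CPM on OP50 and 3.17 and 3.53 CPM on JUb74, and in unk49 at 4.37 and 1.94 CPM on OP50. It had no reads in 3 libraries, and its diet effect in unk59 (log2 fold change 4.46, SE 0.84, adjusted p = 0.0022) became 9.23 without library 2 of unk59 on OP50, which left a library with no reads on that side. Dehydrogenase genes acdh-5 (WBGene00016491, chromosome I, 6784868 to 6787139, plus strand) and acdh-4 (WBGene00020419, chromosome I, 6546615 to 6548675, minus strand) rose as well. Levels of acdh-5 were 0.779 and 0.495 CPM in wild type on OP50 and 0 and 0.0849 CPM on JUb74. In unk59, acdh-5 was at 0.101 and 0.573 CPM on OP50 and 6.81 and 7.39 CPM on JUb74, and in unk49 at 5.65 and 3.09 CPM on OP50. Diets were apart in unk59 (log2 fold change 4.35, SE 0.66, adjusted p = 0.000557), and the log2 value was 6.04 without library 2 of unk59 on OP50. Levels of acdh-4 were 1.92 and 1.22 CPM in wild type on OP50 and 1.11 and 1.06 CPM on JUb74. In unk59, acdh-4 was at 0.66 and 1.05 CPM on OP50 and 10.2 and 10.8 CPM on JUb74, and in unk49 at 5.35 and 5.57 CPM on OP50. Unlike the genes above, acdh-4 had 0.66 CPM or more in every library, and rose with a small SE in unk59 (log2 fold change 3.61, SE 0.35, adjusted p = 7.69e-05). The gene acs-9 (WBGene00020634, chromosome X, 16878077 to 16880526, minus strand) shares 228 exon bases, 14.1% of its exon length, with T20F7.1 on the opposite strand. The strand columns split evenly, so they cannot tell the reads of these shared bases apart. Pairs with an ambiguous feature were not assigned to a gene in the unstranded counts. Levels of acs-9 were 0.458 and 0.54 CPM in wild type on OP50 and 0.24 and 0.297 CPM on JUb74. In unk59, acs-9 was at 0.254 and 0.143 CPM on OP50 and 0.814 and 0.452 CPM on JUb74, and in unk49 at 0.428 and 0.398 CPM on OP50. Its rise in unk59 (log2 fold change 1.65, SE 0.56, adjusted p = 0.028) turned to -0.12 when the strand column with the larger sum was counted. The acs-9 call was also lost without either library of unk59 on OP50 or library 1 of unk59 on JUb74 (adjusted p 0.0541 to 0.191). The other 7 genes kept their direction and their calls for the diet in unk59 with each library left out and under each other scaling, filter, test and strand setting that tested them.

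**Figure D3:**
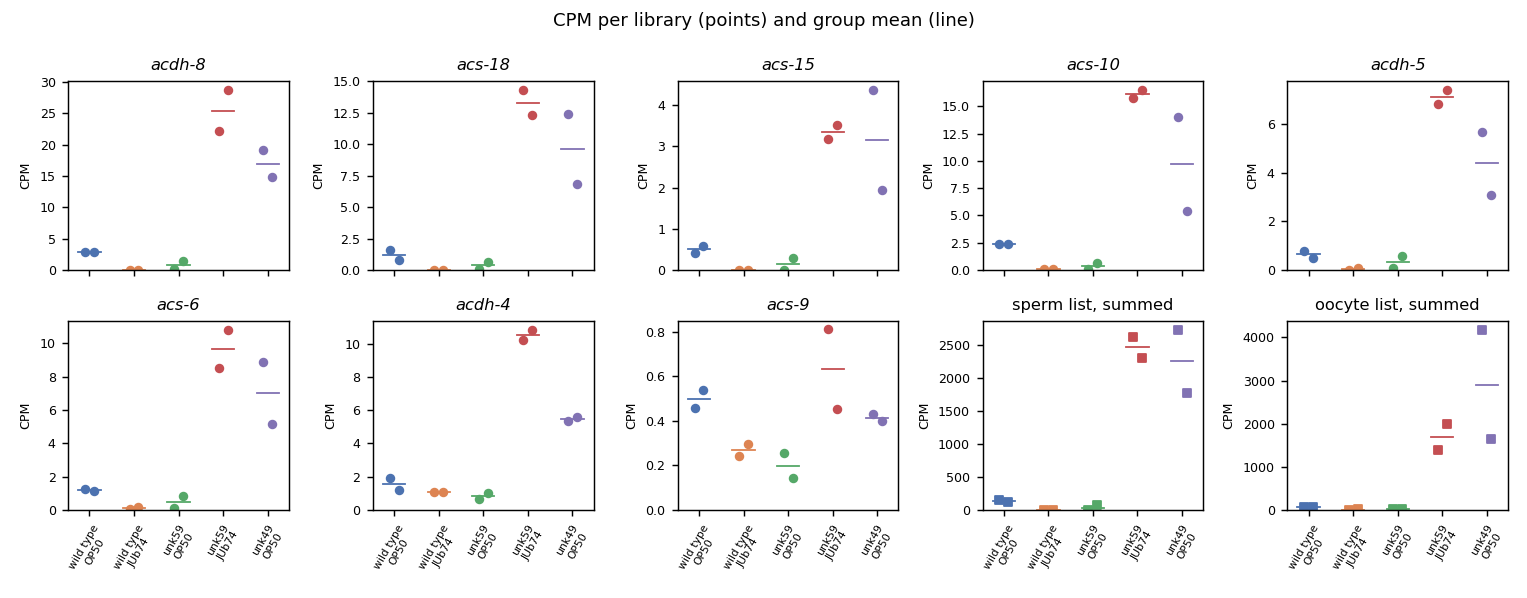
Points give CPM in each library and lines the group mean of 2 libraries for the 8 genes of positive interaction, with the summed CPM of the sperm list and of the oocyte and eggshell list as squares in the last panels; each vertical axis starts at 0. For acdh-8 the points of unk59 on JUb74 (22.1 and 28.7 CPM) and unk49 on OP50 (19.1 and 14.9 CPM) stand above the other groups, and the same groups stand highest in the sperm panel.

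As differences of log2 fold changes, the interaction was 4.14 for acdh-4 (SE 0.49, adjusted p = 0.000266) and 7.68 for acs-6 (SE 1.06, adjusted p = 0.000496). The acs-6 value rests on 1 and 4 reads in wild type on JUb74 and ran from 6.87 to 9.89 over the alternatives. Fitted values of 8.02 for acdh-5, 14.04 for acdh-8, 10.18 for acs-10, 10.95 for acs-15 and 12.89 for acs-18 depend on the prior count, since wild type on JUb74 was at or under 3 reads a library. Measured against 3 reads a library there, unk59 on JUb74 was at least 187-fold higher for acdh-8, 24.7-fold for acs-15 and 98-fold for acs-18. Its ratio to wild type on JUb74 was 179 (95% interval 69.7 to 659, counting error only) for acs-10. For acdh-5 the same ratio was 158 (95% interval 43.3 to 1307, counting error only). The interaction of acs-9 was 2.52 (SE 0.77, adjusted p = 0.0261), and -0.26 with the strand column. That interaction call was lost without either library of wild type on OP50, library 1 of wild type on JUb74, library 2 of unk59 on OP50 or library 1 of unk59 on JUb74 (adjusted p 0.0615 to 0.107).

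Sperm, oocyte and germline markers rose on JUb74 in unk59, as these 8 genes did, while no yolk gene passed for the diet in unk59. In unk59 the 35 sperm genes summed to 4.52 and 70.9 CPM on OP50 and 2617 and 2299 CPM on JUb74, and in unk49 to 2718 and 1771 CPM on OP50. No reads were found for 9 and 1 of the 35 in unk59 on OP50, and for 1 in each library of unk59 on JUb74 and of unk49. Summed levels of 10 oocyte and eggshell genes were 77.8 and 79.8 CPM in wild type on OP50 and 10.7 and 14.6 CPM on JUb74. In unk59 the oocyte and eggshell list summed to 13.3 and 24.9 CPM on OP50 and 1386 and 1989 CPM on JUb74, and in unk49 to 4172 and 1642 CPM on OP50. The 6 germline genes summed to 266 and 320 CPM in wild type on OP50 and 45 and 96.5 CPM on JUb74. In unk59 the germline list summed to 84.4 and 37.7 CPM on OP50 and 381 and 618 CPM on JUb74. In unk49 it summed to 1459 and 678 CPM on OP50. On JUb74 in unk59, 33 of 33 sperm genes tested, 10 of 10 oocyte and eggshell genes and 6 of 6 germline genes rose, beside 33.5% of all genes. In unk49 against wild type on OP50, 29, 10 and 5 of them were higher, beside 27.2% of all genes. Of 6 yolk genes 0 passed edgeR's test in either comparison, with 0 and 1 at an unadjusted p under 0.05. Summed levels of the 6 yolk genes were 4423 and 2058 CPM in wild type on OP50 and 23 and 5.35 CPM on JUb74. In unk59 the yolk list summed to 73.2 and 5410.3 CPM on OP50 and 14961 and 9721 CPM on JUb74, and in unk49 to 20589.8 and 40439.9 CPM on OP50. The yolk sums of the unk59 libraries on OP50 were far apart, and unk59 on JUb74 and unk49 held the highest sums. In the interaction 6 of 6 yolk genes passed with positive values, beside 23.3% of all genes. The part of these shifts in the result for the 8 genes was not tested. Between unk59 on JUb74 and unk49 on OP50 none of the 8 genes passed edgeR's test (log2 fold changes 0.084 to 0.94, adjusted p 0.0589 to 0.93). Of all genes, 17% passed there.

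The 10 genes with a negative interaction were acdh-6, acdh-7, acdh-10, acs-3, acs-7, acs-16, acs-20, ech-1.1, ech-1.2 and ech-4. All 10 fell on JUb74 in unk59 and were lower in unk59 than in wild type on JUb74. Both directions follow in part from the choice by the interaction, which uses these groups. None of the 10 passed for the diet in wild type (log2 fold changes -0.34 to 0.67), and for each the unk59 libraries on JUb74 were the lowest of all libraries. Among the synthetases, acs-20 (WBGene00009218, chromosome IV, 12392121 to 12398706, minus strand) had the smallest SE of these 4. Levels of acs-20 were 109 and 97.6 CPM in wild type on OP50 and 149 and 179.6 CPM on JUb74. In unk59, acs-20 was at 125 and 112 CPM on OP50 and 19.2 and 24.8 CPM on JUb74, and in unk49 at 34.8 and 31 CPM on OP50. Its libraries fell into high groups and the low groups unk59 on JUb74 and unk49 (log2 fold change -2.43, SE 0.20, adjusted p = 4.48e-05; interaction -3.1, SE 0.27, adjusted p = 0.000126). Synthetase acs-3 (WBGene00020343, chromosome V, 1969528 to 1974514, plus strand) acts with the nuclear receptor NHR-25 to limit fat uptake. Levels of acs-3 were 15 and 15.3 CPM in wild type on OP50 and 15.4 and 23.7 CPM on JUb74. In unk59, acs-3 was at 10.9 and 13.7 CPM on OP50 and 1.5 and 1.27 CPM on JUb74, and in unk49 at 6.43 and 4.24 CPM on OP50. It fell on JUb74 in unk59 (log2 fold change -3.15, SE 0.33, adjusted p = 9.68e-05; interaction -3.52, SE 0.43, adjusted p = 0.000305). Synthetase acs-7 (WBGene00007228, chromosome II, 9292017 to 9294033, plus strand) takes part in attaching indole groups to ascarosides. Levels of acs-7 were 160.0 and 89.3 CPM in wild type on OP50 and 167 and 117 CPM on JUb74. In unk59, acs-7 was at 131 and 171 CPM on OP50 and 28.6 and 30.7 CPM on JUb74, and in unk49 at 45.5 and 79 CPM on OP50. Wild-type libraries of acs-7 varied within each diet, and the fall in unk59 was larger than that spread (log2 fold change -2.35, SE 0.35, adjusted p = 0.000527; interaction -2.54, SE 0.48, adjusted p = 0.00256). Synthetase acs-16 (WBGene00018579, chromosome I, 1471075 to 1479923, plus strand) had the smallest fall of these 4. Levels of acs-16 were 9.12 and 10.1 CPM in wild type on OP50 and 13.2 and 11.8 CPM on JUb74. In unk59, acs-16 was at 14.3 and 9.88 CPM on OP50 and 6.55 and 5.87 CPM on JUb74, and in unk49 at 7.11 and 9.41 CPM on OP50. Its fall in unk59 (log2 fold change -0.96, SE 0.26, adjusted p = 0.0105; interaction -1.34, SE 0.36, adjusted p = 0.0155) lost its call without library 1 of unk59 on OP50 or library 2 of unk59 on JUb74 (adjusted p 0.0511 to 0.0911). The interaction call of acs-16 was lost without library 1 of wild type on OP50, library 1 of unk59 on OP50 or library 2 of unk59 on JUb74 (adjusted p 0.0636 to 0.0658).

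Among the dehydrogenases, acdh-7 (WBGene00020812, chromosome X, 17215018 to 17217105, minus strand) and acdh-10 (WBGene00020366, chromosome X, 17213144 to 17214903, minus strand) are relatives of the medium-chain acyl-CoA dehydrogenase and lie 114 bases apart on the same strand. Levels of acdh-10 were 278 and 217 CPM in wild type on OP50 and 359 and 279.5 CPM on JUb74. In unk59, acdh-10 was at 269 and 329 CPM on OP50 and 110.1 and 102 CPM on JUb74, and in unk49 at 160.2 and 154 CPM on OP50. Both unk59 libraries on JUb74 were lowest, followed by those of unk49 (log2 fold change -1.49, SE 0.20, adjusted p = 0.000328; interaction -1.86, SE 0.29, adjusted p = 0.000807). Levels of acdh-7 were 183 and 144 CPM in wild type on OP50 and 215 and 179 CPM on JUb74. In unk59, acdh-7 was at 174 and 219.7 CPM on OP50 and 70.5 and 66 CPM on JUb74, and in unk49 at 121 and 107 CPM on OP50. The same groups were lowest for acdh-7 (log2 fold change -1.53, SE 0.20, adjusted p = 0.00028; interaction -1.8, SE 0.28, adjusted p = 0.000917). Another medium-chain relative, acdh-8, rose in the comparison in which these neighbours fell. Dehydrogenase acdh-6 (WBGene00015335, chromosome III, 8561136 to 8563026, plus strand) fell further. Levels of acdh-6 were 20.9 and 17 CPM in wild type on OP50 and 14.4 and 18.3 CPM on JUb74. In unk59, acdh-6 was at 17.5 and 25.7 CPM on OP50 and 3.25 and 5.99 CPM on JUb74, and in unk49 at 9.68 and 12.3 CPM on OP50. Diets did not overlap in unk59 for acdh-6 (log2 fold change -2.22, SE 0.34, adjusted p = 0.000544; interaction -2.0, SE 0.46, adjusted p = 0.00664).

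Within the hydratase family, ech-1.1 (WBGene00001150, chromosome V, 15357664 to 15361512, minus strand) and ech-1.2 (WBGene00020347, chromosome I, 6206955 to 6211155, minus strand) resemble the alpha subunit of the trifunctional protein, which carries hydratase and hydroxyacyl-CoA dehydrogenase activity for long chains. Levels of ech-1.1 were 99.4 and 36.5 CPM in wild type on OP50 and 84.9 and 23.5 CPM on JUb74. In unk59, ech-1.1 was at 47.3 and 87.3 CPM on OP50 and 4.02 and 4.23 CPM on JUb74, and in unk49 at 20.1 and 31 CPM on OP50. Wild-type libraries of ech-1.1 differed widely on either diet, yet all lay above unk59 on JUb74 (log2 fold change -4.03, SE 0.71, adjusted p = 0.00125; interaction -3.7, SE 0.91, adjusted p = 0.0101). The interaction call of ech-1.1 was lost with no filter on low counts (log2 -3.69, edgeR adjusted p = 0.0737). Levels of ech-1.2 were 414 and 374 CPM in wild type on OP50 and 366 and 279 CPM on JUb74. In unk59, ech-1.2 was at 385 and 438 CPM on OP50 and 162 and 169.6 CPM on JUb74, and in unk49 at 297 and 278 CPM on OP50. The fall of ech-1.2 had a smaller size and SE (log2 fold change -1.31, SE 0.18, adjusted p = 0.000365; interaction -1.02, SE 0.26, adjusted p = 0.0105), and its interaction call was lost without library 2 of wild type on OP50 or library 2 of unk59 on JUb74 (adjusted p 0.0537 to 0.0572). The gene ech-4 (WBGene00001153, chromosome II, 10821031 to 10822391, plus strand) is a relative of the enoyl-CoA isomerase ECI2. Levels of ech-4 were 209 and 132 CPM in wild type on OP50 and 172 and 97.3 CPM on JUb74. In unk59, ech-4 was at 143 and 215 CPM on OP50 and 59.2 and 54.4 CPM on JUb74, and in unk49 at 104 and 116 CPM on OP50. It fell in unk59 without overlap (log2 fold change -1.66, SE 0.32, adjusted p = 0.00207). Its interaction of -1.32 (SE 0.45, adjusted p = 0.0395) lost its call without library 2 of wild type on OP50, library 1 of wild type on JUb74, library 2 of unk59 on OP50, either library of unk59 on JUb74 or either library of unk49 on OP50 (log2 -1.37 to -0.85, adjusted p 0.0773 to 0.159).

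Summed levels of epidermis, moulting and intestine markers were also lowest in unk59 on JUb74. The sums over 6 epidermis genes were 2782 and 2449 CPM in wild type on OP50 and 2672 and 2685 CPM on JUb74. In unk59 the epidermis list summed to 3419 and 3078 CPM on OP50 and 307 and 478 CPM on JUb74, and in unk49 to 1002 and 815 CPM on OP50. In this sum unk49 was next lowest. Most of the sum in each library came from dpy-5 and sqt-3. In unk59, dpy-5 was at 1212 and 1075 CPM on OP50 and 87.3 and 171 CPM on JUb74. The epidermis gene elt-3 was instead higher in unk59 on JUb74 (78.5 and 75.5 CPM) than on OP50 (71.7 and 61.4 CPM). Its level was lower in unk49 than in unk59 on JUb74, and elt-1 overlapped between the diets in unk59. The sums over 13 moulting-cycle genes were 4170.3 and 4703 CPM in wild type on OP50 and 4337 and 5858 CPM on JUb74. In unk59 the moulting cycle list summed to 3409.8 and 4129 CPM on OP50 and 173 and 271 CPM on JUb74, and in unk49 to 1287 and 977 CPM on OP50. The same groups were lowest for these sums, but not for every gene: bli-1 and bli-2 were lowest in wild type on JUb74. On that diet 2 moulting-cycle genes were higher and 11 lower in unk59 than in wild type, beside 33% higher and 26.1% lower among all genes. The sums over 6 intestine genes were 4462 and 4309.8 CPM in wild type on OP50 and 5404 and 3082 CPM on JUb74. In unk59 the intestine list summed to 5253 and 4818 CPM on OP50 and 2477 and 1933 CPM on JUb74, and in unk49 to 2859.9 and 2980.0 CPM on OP50. The groups were closer here, and no gene of these 3 lists was without reads in any library. On JUb74 in unk59, 4 of 6 epidermis genes, 13 of 13 moulting-cycle genes and 5 of 6 intestine genes fell, beside 26.3% of all genes. The part of these shifts in the result for the 10 genes was not tested.

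**Figure D4:**
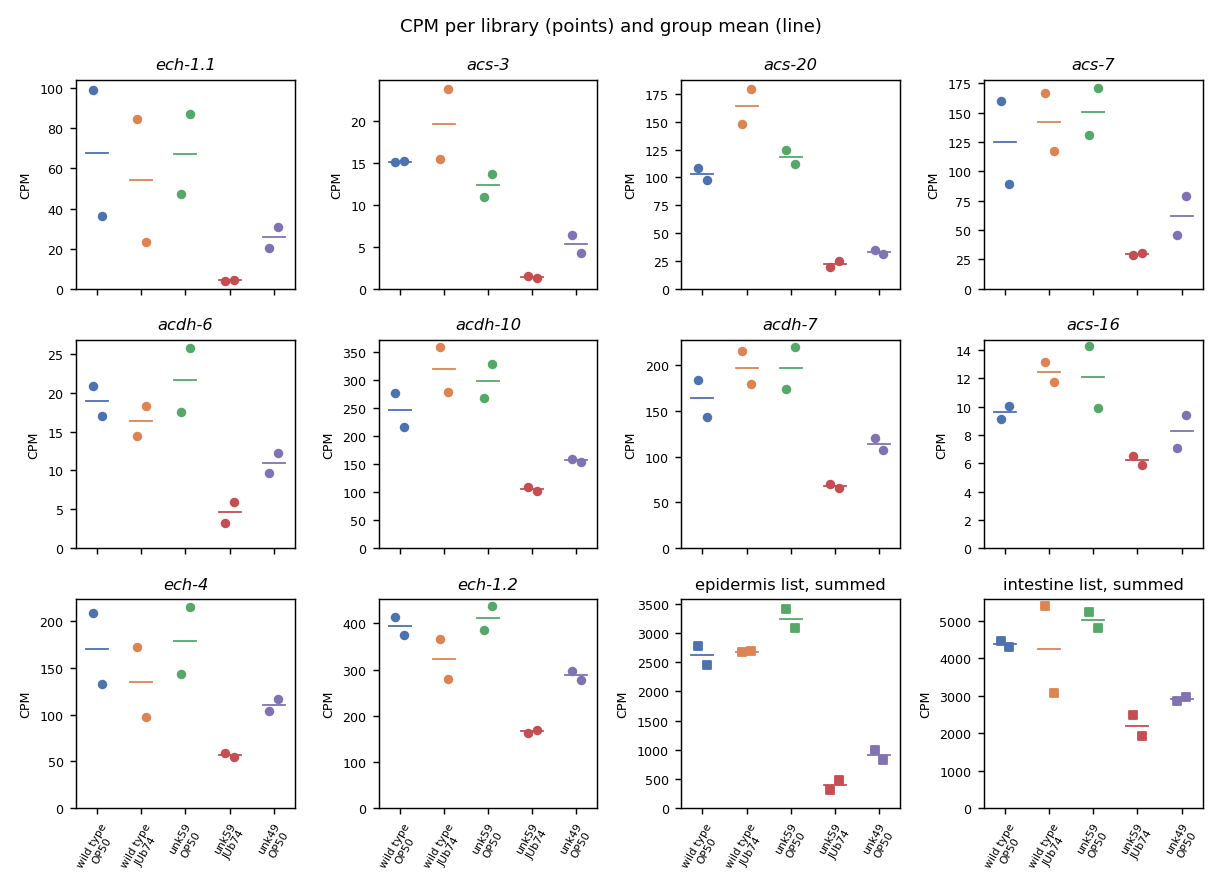
Points give CPM in each library and lines the group mean of 2 libraries for the 10 genes of negative interaction, with the summed CPM of the epidermis list and the intestine list as squares in the last panels; each vertical axis starts at 0. In every gene panel both points of unk59 on JUb74 are the lowest of the 10, for example 1.5 and 1.27 CPM for acs-3, and the epidermis panel has the same lowest group.

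A further 10 genes passed for the diet in unk59 while their interaction did not pass, 5 higher and 5 lower on JUb74. Of these, ech-9 rose from 0.203 and 0.525 CPM to 12.4 and 5.5 CPM (log2 fold change 4.59, SE 0.54, adjusted p = 0.000165; interaction 2.1, SE 0.80, adjusted p = 0.0579). All 5 genes called in wild type were also called in unk59. Among all genes tested, 1241 of the 1426 called in wild type were called in both, or 7.78% of all genes. Of the 5, acs-6, acs-10, acs-18 and acdh-8 fell in wild type and rose in unk59. Of the 41 genes, ech-9 is the 1 that rose in both genotypes, as 1.1% of all genes did. Fasting-induced acs-2 (WBGene00009221, chromosome V, 15567394 to 15569897, plus strand) was at 2.89 and 4.82 CPM in unk59 on OP50, 35.7 and 40.0 CPM on JUb74, and 15 and 2.25 CPM in unk49. Diets did not overlap in unk59 for acs-2 (log2 fold change 3.29, SE 1.06, adjusted p = 0.0252; interaction 1.13, SE 1.44, adjusted p = 0.555). Its call was lost without library 1 of unk59 on OP50 or either library of unk59 on JUb74 (log2 2.97 to 3.37, adjusted p 0.0607 to 0.0851). The hydratase gene ech-7 (WBGene00001156, chromosome I, 14367616 to 14369773, minus strand), rose as well. Levels of ech-7 were 90.3 and 109 CPM in wild type on OP50 and 150.2 and 182 CPM on JUb74. In unk59, ech-7 was at 98.5 and 85.7 CPM on OP50 and 396 and 318 CPM on JUb74, and in unk49 at 74.5 and 173 CPM on OP50. Its unk59 libraries on JUb74 were above all others (log2 fold change 1.96, SE 0.35, adjusted p = 0.00125; interaction 1.22, SE 0.48, adjusted p = 0.065). Long-chain synthetase relative acs-17 (WBGene00016716, chromosome X, 5937506 to 5944510, minus strand) had the same highest group. Levels of acs-17 were 26.9 and 32.4 CPM in wild type on OP50 and 30.9 and 55 CPM on JUb74. In unk59, acs-17 was at 36.9 and 27.9 CPM on OP50 and 83.5 and 78.4 CPM on JUb74, and in unk49 at 32.1 and 34.4 CPM on OP50. It rose on JUb74 in unk59 (log2 fold change 1.32, SE 0.27, adjusted p = 0.00257; interaction 0.78, SE 0.38, adjusted p = 0.12). Acetyl-CoA synthetase acs-19 (WBGene00007969, chromosome III, 3864489 to 3867098, plus strand) makes acetyl-CoA from acetate. Levels of acs-19 were 226 and 271 CPM in wild type on OP50 and 334 and 339.9 CPM on JUb74. In unk59, acs-19 was at 250.4 and 219 CPM on OP50 and 499 and 412.7 CPM on JUb74, and in unk49 at 298 and 292 CPM on OP50. Again unk59 on JUb74 was highest (log2 fold change 0.96, SE 0.18, adjusted p = 0.00146; interaction 0.52, SE 0.25, adjusted p = 0.116).

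The 5 that fell were acs-5, acs-14, acdh-9, acdh-11 and acdh-12, with log2 fold changes from -1.06 to -0.86 and no overlap between the diets in unk59. Long-chain synthetase relative acs-5 (WBGene00013575, chromosome III, 13540139 to 13543534, minus strand) was lowest in unk59 on JUb74 and in unk49. Levels of acs-5 were 294 and 269 CPM in wild type on OP50 and 277 and 185 CPM on JUb74. In unk59, acs-5 was at 273 and 269.8 CPM on OP50 and 145 and 124 CPM on JUb74, and in unk49 at 129 and 142 CPM on OP50. Its fall on JUb74 in unk59 had an SE of 0.21 (-1.02 on the log2 scale, adjusted p = 0.00277). Long-chain dehydrogenase acdh-11, which takes part in heat adaptation through the desaturase gene fat-7, went from 87.4 and 134 CPM to 54.8 and 51 CPM in unk59 (adjusted p = 0.00607). The acdh-11 call was lost without library 2 of unk59 on OP50 (log2 -0.73, adjusted p 0.0512). Very-long-chain dehydrogenase relative acdh-12 went from 121 and 189 CPM to 84 and 85.8 CPM (log2 fold change -0.87, SE 0.24, adjusted p = 0.0114). The acdh-12 call was lost without library 2 of unk59 on OP50 or either library of unk59 on JUb74 (log2 -0.90 to -0.52, adjusted p 0.0603 to 0.11). Synthetase acs-14 went from 117 and 139 CPM to 74.2 and 62.8 CPM (log2 fold change -0.90, SE 0.21, adjusted p = 0.00489). Dehydrogenase acdh-9 went from 168 and 149 CPM to 89.6 and 84.8 CPM (log2 fold change -0.86, SE 0.25, adjusted p = 0.0147), a call lost without library 1 of unk59 on OP50 or either library of unk59 on JUb74 (adjusted p 0.0591 to 0.0658).

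**Figure D5:**
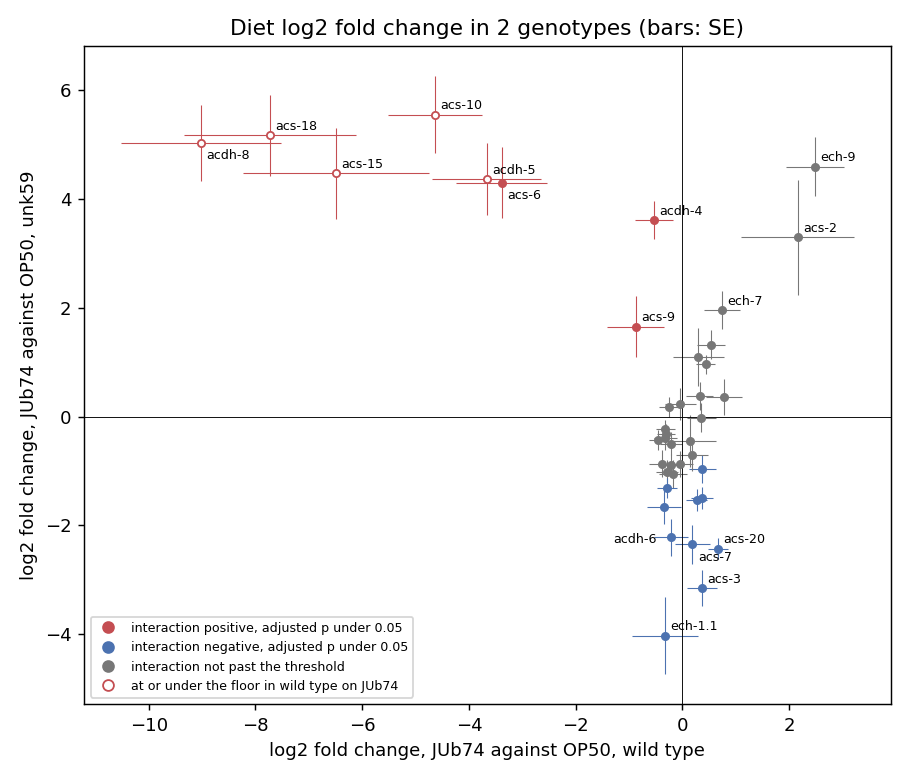
Each point is a gene, placed by its log2 fold change of JUb74 against OP50 in wild type (horizontal) and in unk59 (vertical), with bars of 1 SE; colours give the interaction call, and open points mark genes at or under 3 reads a library in wild type on JUb74, whose horizontal values depend on the prior count. Genes of positive interaction lie at upper left, those of negative interaction low and near 0 on the horizontal axis, and ech-9 at upper right (2.49 and 4.59).

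On OP50, unk59 and wild type gave no call among the 41 genes in edgeR's test (0 calls, beside 0.0125% of all genes, or 2 genes), while DESeq2 called 1. An unadjusted p under 0.05 was found for 4, all lower in unk59: acs-10 (log2 fold change -2.78, SE 0.72, adjusted p = 0.207), acdh-8 (-1.9, adjusted p = 0.36), acs-9 (-1.32, adjusted p = 0.423) and acdh-4 (-0.87, adjusted p = 0.407). The share of all genes at this unadjusted p was not counted, and 23 of the 41 genes had a positive log2 fold change. For acs-10 the libraries were at 2.38 and 2.39 CPM in wild type and 0.0507 and 0.62 CPM in unk59, without overlap. Without library 2 of unk59 on OP50, 2 genes passed. Libraries did not overlap for 13 of the 41 genes, beside 53.8% of all genes.

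Between unk49 and wild type on OP50, 16 of the 41 genes differed, 9 higher and 7 lower in unk49. That share of 39% stands beside 46.3% of all genes (27.2% higher and 19.1% lower), and with upper-quartile scaling the split was 8 higher and 12 lower. Higher were 7 of the 8 genes of positive interaction, with log2 fold changes from 1.8 for acdh-4 to 3.02 for acs-18, together with ech-9 and acs-11; acs-9 was at -0.27. Libraries did not overlap for 30 of the 41 genes, beside 75.1% of all genes. Of the higher genes, acdh-4 and ech-9 kept their calls with each library left out. The calls of acdh-8, acs-6, acs-10 and acs-15 were lost without either library of wild type on OP50 and those of acdh-5 and acs-18 without library 2, while those of acs-6, acs-10 and acs-15 were also lost without library 1 of unk49. Their log2 values were then 2.48 for acdh-5, 2.53 to 2.55 for acdh-8, 1.93 to 2.58 for acs-6, 1.04 to 2.02 for acs-10, 1.81 to 2.92 for acs-15 and 2.57 for acs-18, with adjusted p up to 0.176. Bifunctional enzyme relative ech-9 was at 2.31 and 2.3 CPM in unk49 and 0.367 and 0.315 CPM in wild type, without overlap (log2 fold change 2.74, SE 0.54, adjusted p = 0.00371). Synthetase acs-11 (WBGene00018269, chromosome II, 4742137 to 4745280, plus strand) was at 58.8 and 69.3 CPM in unk49 and 47.1 and 43.3 CPM in wild type (log2 fold change 0.50, SE 0.18, adjusted p = 0.0467). Its call was lost without either library of wild type on OP50, either library of wild type on JUb74, either library of unk59 on JUb74 or either library of unk49 on OP50 (log2 0.30 to 0.56, adjusted p 0.0645 to 0.263). The high sperm and oocyte sums of unk49 accompany these rises, and their part in the result was not tested. Lower in unk49 were acs-20, acs-3, acs-5, acs-7, acdh-10, acdh-13 and ech-5. For acs-20 the libraries were at 34.8 and 31 CPM in unk49 and 109 and 97.6 CPM in wild type (log2 fold change -1.65, SE 0.19, adjusted p = 0.000518). For acs-3 they were at 6.43 and 4.24 CPM and 15 and 15.3 CPM (log2 fold change -1.5, SE 0.30, adjusted p = 0.00353), and for acs-5 at 129 and 142 CPM and 294 and 269 CPM (log2 fold change -1.05, SE 0.21, adjusted p = 0.00385). These 3 calls held with each library left out.

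For acs-7 the libraries were at 45.5 and 79 CPM in unk49 and 160.0 and 89.3 CPM in wild type on OP50 (log2 fold change -1.0, SE 0.34, adjusted p = 0.0364). The acs-7 call was lost without library 1 of wild type on OP50, library 1 of unk59 on JUb74 or library 1 of unk49 on OP50 (log2 -1.0 to -0.52, adjusted p 0.058 to 0.3), and its log2 value was -1.54 without library 2 of unk49. Medium-chain dehydrogenase relative acdh-10 was lower by a smaller amount (log2 fold change -0.66, SE 0.20, adjusted p = 0.024), a call lost without library 1 of wild type on OP50 or library 2 of unk49 on OP50 (adjusted p 0.0544 to 0.189). Hydratase family gene ech-5 was at 24.8 and 36.9 CPM in unk49 and 50.1 and 47.9 CPM in wild type (log2 fold change -0.67, SE 0.21, adjusted p = 0.0285). Its call was lost without either library of wild type on OP50 (adjusted p 0.0944 to 0.126), and its log2 value was -1.06 without library 2 of unk49. Dehydrogenase acdh-13 was at 31.9 and 28.7 CPM in unk49 and 40.1 and 43.6 CPM in wild type (log2 fold change -0.47, SE 0.17, adjusted p = 0.0476). The acdh-13 call was lost without either library of wild type on OP50, library 1 of wild type on JUb74, either library of unk59 on OP50 or library 1 of unk59 on JUb74 (log2 -0.53 to -0.41). RLE scaling, no filter, at least 10 reads in every library and DESeq2 lost it too (log2 -0.46 to -0.38). Of the 16 calls, 5 held with each library left out, and the count was 7 without either library of wild type on OP50.

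Compared with unk59 on OP50, unk49 differed in 18 of 41 genes, 8 higher and 10 lower. That is 43.9%, beside 54% of all genes (30.2% higher and 23.8% lower), and libraries did not overlap for 32 genes, beside 76.1%. The comparison shares its libraries with those above. As unk59 on OP50 enters the interaction, directions of genes picked by it follow in part from that choice. Lower in unk49 were acs-20 (34.8 and 31 CPM against 125 and 112 CPM; log2 fold change -1.85, SE 0.19, adjusted p = 0.000187), acs-7 (log2 fold change -1.28, SE 0.34, adjusted p = 0.0116), acs-3 (log2 fold change -1.2, SE 0.29, adjusted p = 0.00767) and acs-5 (log2 fold change -1.0, SE 0.21, adjusted p = 0.00368). The acs-7 call was lost without library 2 of unk59 on OP50 or library 1 of unk49 on OP50 (adjusted p 0.053 to 0.0705) and the acs-3 call without library 2 of unk49 on OP50 (adjusted p 0.0502). Also lower were ech-8 (26.7 and 45.5 CPM against 53.2 and 84.3 CPM; log2 fold change -0.93, SE 0.30, adjusted p = 0.0253), ech-5 (-0.68), ech-1.2 (-0.52), acdh-6 (-0.97), acdh-7 (-0.79) and acdh-10 (-0.93), with adjusted p from 0.00423 to 0.036. Of these, acdh-10 kept its call with each library left out, as did acs-20 and acs-5. The acdh-7 call was lost without library 2 of unk59 on OP50 (adjusted p 0.0685) and the ech-8 call without library 2 of unk59 on OP50 or library 1 of unk49 on OP50 (adjusted p 0.124 to 0.182). The ech-5 call was lost without either library of unk59 on OP50 or library 1 of unk49 on OP50 (adjusted p 0.0568 to 0.0768), and the acdh-6 call without library 2 of unk59 on OP50 or either library of unk49 on OP50 (adjusted p 0.0576 to 0.169). The ech-1.2 call was lost without either library of wild type on OP50, either library of unk59 on OP50, either library of unk59 on JUb74 or library 2 of unk49 on OP50 (log2 -0.61 to -0.42). It was also lost with RLE scaling, no filter, at least 10 reads in every library, DESeq2 and the strand column (log2 -0.51 to -0.35). The 8 that were higher were ech-9 (log2 fold change 2.63, SE 0.54, adjusted p = 0.00335) and the genes of positive interaction other than acs-9. Without library 2 of unk59 on OP50 the log2 value of acs-10 went from 4.81 to 7.43, that of acdh-8 from 4.44 to 7.31 and that of acs-6 from 3.84 to 6.04. For acs-15 it went from 4.38 to 9.15, for acs-18 from 4.7 to 7.41 and for acdh-5 from 3.66 to 5.35.

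With JUb74 as the food, 25 of 41 genes differed between unk59 and wild type, 11 higher and 14 lower in unk59. That is 61%, beside 59% of all genes (33% higher and 26.1% lower), and libraries did not overlap for 34 genes, beside 82.2%. Both groups enter the interaction, so directions of genes picked by it follow in part from that choice. The 10 genes of negative interaction were all lower, led by acs-3 (1.5 and 1.27 CPM in unk59 against 15.4 and 23.7 CPM in wild type; log2 fold change -3.82, SE 0.33, adjusted p = 3.86e-05). Next were ech-1.1 (log2 fold change -3.71, SE 0.70, adjusted p = 0.00171), acs-20 (log2 fold change -2.9, SE 0.20, adjusted p = 2.34e-05) and acs-7 (log2 fold change -2.26, SE 0.35, adjusted p = 0.00056). Lower as well were acs-5, acs-14, acdh-11 and acdh-12, with log2 fold changes from -0.87 to -0.70. Higher were the genes of positive interaction other than acs-9, with ech-9 (log2 fold change 2.21, SE 0.45, adjusted p = 0.00245), ech-7 (log2 fold change 1.1, SE 0.34, adjusted p = 0.0193), acs-17 (log2 fold change 0.91, SE 0.27, adjusted p = 0.0152) and acs-11 (log2 fold change 0.50, SE 0.18, adjusted p = 0.0393). Removal of library 1 of wild type on JUb74 gave acs-17 a log2 value of 0.56 (adjusted p 0.0936) and removal of library 2 gave 1.43; the acs-17 call was also lost without library 1 of unk59 on JUb74 (adjusted p 0.0633). The ech-7 call was lost without library 1 of wild type on JUb74 or library 1 of unk59 on JUb74 (adjusted p 0.0992 to 0.0993). The acs-11 call was lost without either library of wild type on OP50, either library of wild type on JUb74 or either library of unk59 on JUb74 (adjusted p 0.0676 to 0.12). Without library 1 of wild type on JUb74 the calls of acs-5 (log2 -0.46), acs-14 (-0.44), ech-4 (-0.78), acdh-11 (-0.61) and acdh-12 (-0.48) were lost too, with adjusted p from 0.0736 to 0.177. The same 5 were lost without library 2 of unk59 on JUb74, and acdh-11 and acdh-12 without library 1. With each library left out, 17 of the 25 calls held.

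Last, unk59 on JUb74 was set against unk49 on OP50, the groups with the highest sperm sums; they differ in diet and allele together, so the parts of diet and allele cannot be told apart. They differed in 10 of 41 genes, 4 higher and 6 lower in unk59 on JUb74, a share of 24.4% beside 17% of all genes (8.54% higher and 8.46% lower). With upper-quartile scaling the split was 5 higher and 4 lower. Lower were ech-1.1 (4.02 and 4.23 CPM against 20.1 and 31 CPM; log2 fold change -2.63, SE 0.67, adjusted p = 0.0308), acs-3 (log2 fold change -1.94, SE 0.32, adjusted p = 0.00501) and acdh-6 (log2 fold change -1.25, SE 0.33, adjusted p = 0.0337). Also lower were ech-1.2 (log2 fold change -0.79, SE 0.18, adjusted p = 0.0197) and acdh-7 (log2 fold change -0.74, SE 0.20, adjusted p = 0.035). Dehydrogenase acdh-9 (WBGene00017874, chromosome II, 846864 to 848603, minus strand) was lower too, at 89.6 and 84.8 CPM in unk59 on JUb74 and 163 and 295 CPM in unk49 (log2 fold change -1.4, SE 0.25, adjusted p = 0.00735). Library 2 of unk49 held its highest level, and without that library the log2 value was -0.93. Higher were ech-9 (log2 fold change 1.95, SE 0.44, adjusted p = 0.0188), ech-7 (log2 fold change 1.53, SE 0.34, adjusted p = 0.0181), acs-17 (log2 fold change 1.28, SE 0.27, adjusted p = 0.0136) and acs-19 (log2 fold change 0.63, SE 0.17, adjusted p = 0.0386), none of which overlapped between the groups. Over the 41 genes 27 did not overlap, beside 63.5% of all genes. None of the 10 calls held with each library left out: the count was 1 without library 1 of unk59 on JUb74, 4 without library 2, and 3 without library 1 of unk49. The log2 value of ech-9 was 1.25 without library 1 of unk59 on JUb74 (adjusted p 0.203).

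In a test of any difference among the 5 groups, 27 of 41 genes passed (65.9%), beside 70.8% of all genes. No comparison with a direction, of 8, called acdh-2, acdh-3, acs-4, acs-12, acs-13, acs-21, acs-24, ech-2 or ech-3. Over the 10 libraries acdh-3 ranged from 100.2 to 148 CPM, acs-12 from 16.1 to 28.2, ech-2 from 15.8 to 25.9 and acs-21 from 5.3 to 9. For ech-3 the range was 8.95 to 20.0 CPM; it shares 123 exon bases with F43H9.3 on the opposite strand. Long-chain synthetase relatives acs-4 and acs-13 ranged from 169.9 to 432 CPM and from 212 to 395 CPM, with unk49 libraries at 338 and 169.9 CPM and 395 and 212 CPM. Levels of acdh-2 were 31.2 and 38.9 CPM in wild type on OP50 and 56.7 and 20.8 CPM on JUb74. In unk59, acdh-2 was at 39.8 and 68.3 CPM on OP50 and 47.3 and 32.1 CPM on JUb74, and in unk49 at 59.4 and 115.5 CPM on OP50. This close relative of acdh-1 was highest in library 2 of unk49, and its spread within groups left unk49 against wild type short of the threshold (log2 fold change 1.32, SE 0.49, adjusted p = 0.0504). Levels of acs-24 were 0.191 to 0.807 CPM.

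Genes that act beside the 41 were counted from 4 lists. Of 9 mitochondrial partners, 1 rose and 5 fell on JUb74 in unk59, beside 59.8% of all genes (33.5% higher and 26.3% lower). In wild type 1 rose and none fell, beside 8.94% of all genes. In both genotypes the gene that rose was hacd-1, a 3-hydroxyacyl-CoA dehydrogenase. Levels of hacd-1 were 118 and 169 CPM in wild type on OP50 and 258 and 384 CPM on JUb74. In unk59, hacd-1 was at 98.9 and 113 CPM on OP50 and 732 and 612 CPM on JUb74, and in unk49 at 144 and 196 CPM on OP50. It rose less in wild type (log2 fold change 1.16, SE 0.26, adjusted p = 0.0319) than in unk59 (log2 fold change 2.67, SE 0.28, adjusted p = 9.7e-05; interaction 1.51, SE 0.37, adjusted p = 0.00975). Its wild-type call was lost without either library of wild type on OP50, library 2 of wild type on JUb74, either library of unk59 on JUb74 or library 2 of unk49 on OP50 (log2 0.69 to 1.43, adjusted p 0.0504 to 0.241). Negative interactions passed for cpt-1 (-1.47, adjusted p = 0.00633) and cpt-2 (-1.19, adjusted p = 0.0121), which move long-chain acyl groups into mitochondria. They also passed for dif-1 (-1.08, adjusted p = 0.0328), a carnitine carrier relative, and F27D4.1 (-0.70, adjusted p = 0.0308), an electron transfer flavoprotein subunit. Levels of cpt-1 were 86.2 and 91 CPM in wild type on OP50 and 88.3 and 95.5 CPM on JUb74. In unk59, cpt-1 was at 109 and 108 CPM on OP50 and 38.8 and 42 CPM on JUb74, and in unk49 at 226 and 131 CPM on OP50. Both unk49 libraries of cpt-1 stood above and both unk59 libraries on JUb74 below all the others. The count of 5 interaction calls was 2 without library 2 of wild type on OP50 or library 2 of unk59 on JUb74, and 3 without library 2 of unk59 on OP50, library 1 of unk59 on JUb74 or library 1 of wild-type worms on JUb74.

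Of 11 genes of peroxisomal beta-oxidation, 10 passed for the diet in unk59, 1 higher and 9 lower, beside 59.8% of all genes (26.3% lower). In the interaction 8 passed, 1 positive and 7 negative, beside 43.3% of all genes. In wild type 0 passed edgeR's test, 0 had an unadjusted p under 0.05 and DESeq2 called 0; removal of library 1 of wild type on JUb74 gave 1 call. Acyl-CoA oxidase acox-1.2 had the most negative interaction. Levels of acox-1.2 were 549.6 and 390.1 CPM in wild type on OP50 and 379 and 132 CPM on JUb74. In unk59, acox-1.2 was at 361 and 354 CPM on OP50 and 15.2 and 12.2 CPM on JUb74, and in unk49 at 24.3 and 41.8 CPM on OP50. It was lowest in unk59 on JUb74 and in unk49, as acs-3 and acs-20 were (interaction -3.83, SE 0.64, adjusted p = 0.00127). Other negative interactions were those of acox-1.6 (-1.75), acox-1.4 (-1.45), acox-1.1 (-1.35), the hydroxyacyl-CoA dehydrogenase dhs-28 (-1.34), the transporter pmp-4 (-1.08) and the thiolase daf-22 (-1.06), with adjusted p from 0.0012 to 0.0332. The acyl-CoA oxidase gene acox-1.5 went the other way. Levels of acox-1.5 were 16.1 and 22.5 CPM in wild type on OP50 and 16.1 and 12.4 CPM on JUb74. In unk59, acox-1.5 was at 9.28 and 5.49 CPM on OP50 and 74.5 and 57.2 CPM on JUb74, and in unk49 at 30.6 and 39.1 CPM on OP50. Its unk59 libraries on JUb74 were the highest (interaction 3.59, SE 0.43, adjusted p = 0.000266). The count of 8 interaction calls was 3 without library 2 of wild type on OP50 or library 2 of unk59 on JUb74.

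Of 6 acyl-CoA binding proteins, 3 passed for the diet in unk59, 2 higher and 1 lower, beside 59.8% of all genes. In the interaction acbp-4 and acbp-6 passed, both positive. In wild type 0 of the 6 passed edgeR's test, 0 had an unadjusted p under 0.05 and DESeq2 called 0. Levels of acbp-6 were 0.596 and 0.72 CPM in wild type on OP50 and 0.336 and 0.255 CPM on JUb74. In unk59, acbp-6 was at 0.406 and 0.43 CPM on OP50 and 6.64 and 5.38 CPM on JUb74, and in unk49 at 1.16 and 2.56 CPM on OP50. It was highest in unk59 on JUb74 (interaction 4.98, SE 0.71, adjusted p = 0.000573). Levels of acbp-4 were 0.183 and 0.045 CPM in wild type on OP50 and 0.0481 and 0.0425 CPM on JUb74. In unk59, acbp-4 was at 0.0507 and 0.143 CPM on OP50 and 2.95 and 3.08 CPM on JUb74, and in unk49 at 1.24 and 1.46 CPM on OP50. Its fitted interaction of 6.1 rests on groups at or near 3 reads a library, and its call was lost without library 1 of wild type on OP50 (log2 4.86, adjusted p 0.0957). Of 7 transcriptional regulators 2 fell on JUb74 in unk59 and none rose, beside 26.3% lower and 33.5% higher among all genes. In the interaction 2 passed, mdt-15 (interaction -0.79, SE 0.26, adjusted p = 0.0365) and hlh-30, a TFEB relative that acts in lysosomal lipid breakdown (interaction -1.12, SE 0.24, adjusted p = 0.00467). Levels of hlh-30 were 142 and 137 CPM in wild type on OP50 and 217 and 194 CPM on JUb74. In unk59, hlh-30 was at 188 and 176 CPM on OP50 and 129.7 and 118 CPM on JUb74, and in unk49 at 125 and 101 CPM on OP50. Wild-type libraries of hlh-30 on JUb74 lay above those on OP50 and unk59 libraries on JUb74 below. In wild type 0 of the 7 passed edgeR's test, 3 had an unadjusted p under 0.05 and DESeq2 called 1. Of the regulators that fell on JUb74 in unk59, none passed without library 1 of unk59 on OP50 or library 2 of unk59 on JUb74, and 1 passed without library 2 of unk59 on OP50. The interaction call of mdt-15 was lost without either library of wild type on OP50, either library of wild type on JUb74, either library of unk59 on OP50 or library 2 of unk59 on JUb74 (log2 -0.89 to -0.55). It was also lost with RLE scaling, no filter, at least 10 reads in every library and DESeq2 (log2 -0.78 to -0.58). Levels of nhr-49 were 129 and 128 CPM in wild type on OP50 and 180.1 and 177 CPM on JUb74. In unk59, nhr-49 was at 138 and 149 CPM on OP50 and 148 and 143 CPM on JUb74, and in unk49 at 129 and 98.5 CPM on OP50. Receptor gene nhr-49 did not pass (interaction -0.46, SE 0.24, adjusted p = 0.154). Whether these list counts differ from those of other genes was not tested, and 43.3% of all genes passed in the interaction.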

How the data were processed

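The deposited tables hold counts of read pairs per gene, made by the authors with STAR 2.7.10 on WBcel235 per the submitters' processing notes. Each library had 23666824 to 24367519 read pairs, of which 2.02% to 2.61% were unmapped and 2.28% to 3.49% mapped to several places; pairs without a feature (0.350% to 0.537%) or with an ambiguous one (1.72% to 1.85%) stayed out of the library sizes. Unstranded counts were used, because the strand columns split evenly (median share of the larger column 49.8% to 50.1%), although the labels call the kit strand-specific. Tables of a group differed by more than sampling noise (chi-square per degree of freedom 19.8 to 88.9) and were kept as separate libraries. The labels number no replicates, and 1 table with no sample of its own was not used.

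Genes were filtered by expression and tested with edgeR 4.0.16 in R 4.3.3: TMM scaling, a mean for each of 5 groups, robust quasi-likelihood F tests, and Benjamini-Hochberg adjustment over 15950 genes at 0.05. The common biological coefficient of variation was 23.45%. The SE is the size of the log2 fold change divided by the root of F, and the interaction is the JUb74 effect in unk59 minus that in wild type. Folds against groups without reads use a floor of 3 reads a library, and counting intervals cover counting error only. Positions (WBcel235, 1-based) come from the Ensembl 115 annotation, which held 46603 of the IDs. Alternatives were RLE and upper-quartile scaling, no filter, at least 10 reads in every library, DESeq2 1.42.0, the strand column with the larger sum, and each library left out; running them on the listed pathway genes was chosen after seeing the data.

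The 41 genes, the lists and the tests were chosen with earlier results of these data known. By rule, values in every library are given for genes called in wild type, in both diet comparisons or in the interaction, and elsewhere for up to 4 rising and 4 falling genes with the largest fold change that passed without overlap between groups, at 2 or more in mean log2 CPM; other genes whose values are printed were chosen after they were seen.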

Additional observations from a re-analysis of the deposited data

Results flagged for a closer look

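The effect of JUb74 differed between unk59 and wild type, by the interaction term of edgeR's test, in 18 of the 41 genes and in 17 genes of the pathway lists. Positive log2 values, higher on JUb74 in unk59 relative to wild type, were 4.14 for acdh-4, 8.02 for acdh-5, 14.04 for acdh-8 and 7.68 for acs-6. They were also 2.52 for acs-9, 10.18 for acs-10, 10.95 for acs-15 and 12.89 for acs-18. Of these, the values of acdh-5, acdh-8, acs-10, acs-15 and acs-18 depend on the prior count, since wild type on JUb74 was at or under 3 reads a library. The value of acs-6 rests on 1 and 4 reads in that group. Negative values were -2.0 for acdh-6, -1.8 for acdh-7, -1.86 for acdh-10, -3.52 for acs-3 and -2.54 for acs-7. They were also -1.34 for acs-16, -3.1 for acs-20, -3.7 for ech-1.1, -1.02 for ech-1.2 and -1.32 for ech-4. Among the listed genes, positive values were 1.51 for hacd-1, 3.59 for acox-1.5, 6.1 for acbp-4 and 4.98 for acbp-6. Negative values were -1.47 for cpt-1, -1.19 for cpt-2, -1.08 for dif-1, -0.7 for F27D4.1, -1.35 for acox-1.1 and -3.83 for acox-1.2. The same sign was found with -1.45 for acox-1.4, -1.75 for acox-1.6, -1.34 for dhs-28, -1.06 for daf-22, -1.08 for pmp-4, -0.79 for mdt-15 and -1.12 for hlh-30. Across all genes 43.3% passed this test. No group held the 4 or more samples that a test for an outlying sample needs.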

How the results depend on the processing

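For JUb74 against OP50 in wild type the count of 5 was 0 with at least 10 reads in every library, 8 with DESeq2, 3 with the strand column and 0 to 7 with a library left out. For unk59 against wild type on OP50 the count of 0 was 1 with DESeq2 and 0 to 2 with a library left out. For unk49 against wild type on OP50 the count of 16 was 10 with at least 10 reads and 7 to 19 with a library left out. For unk49 against unk59 the count of 18 was 11 with at least 10 reads and 13 to 19 with a library left out. For unk59 on JUb74 against unk49 the count of 10 was 16 with DESeq2 and 1 to 11 with a library left out. With a library left out the count was 24 to 31 for the diet in unk59, 17 to 27 for unk59 against wild type on JUb74, 15 to 20 for the interaction and 20 to 32 for any difference. Requiring 10 reads in every library left 32 of the 41 genes in the test and did not test 5 of the 5 genes called in wild type, 7 of the 16 called for unk49 against wild type and 7 of the 18 called for unk49 against unk59, so these genes could not be called and the lower counts do not show that their calls were lost. Under that filter the split of higher and lower calls for the diet in unk59 went from 13 and 15 to 5 and 15. The fitted values of acs-9 turned negative with the strand column, to -0.12 for the diet in unk59 and -0.26 for the interaction; the cause was not tested. Upper-quartile scaling moved the median of all genes for unk49 against wild type from 0.11 to -0.094 (log2), and the split from 9 higher and 7 lower to 8 and 12. Of 1878 alternative values for single genes of the 41, 1673 kept their direction and side of the threshold, 203 lost the call and the 2 of acs-9 turned; of 620 for listed pathway genes, added after the data were seen, 548 kept both and 72 lost the call. Under every other setting that tested them, 3 of the 5 wild-type calls, 25 of the 28 for the diet in unk59 and 15 of the 18 for the interaction held. For unk49 against wild type 14 of 16 held, and for unk59 against wild type on JUb74 23 of 25. For unk49 against unk59 15 of 18 held, and for unk59 on JUb74 against unk49 6 of 10. No paired analysis was possible because the labels number no replicates. At this depth, groups at or under 3 reads a library gave no usable fold change.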
